A study of Caenorhabditis elegans with 11 samples.

Results

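The genes described here are 10 genes that build and control the chromosome segregation machinery of Caenorhabditis elegans: the chromosomal passenger genes air-2, bir-1, icp-1 and csc-1, the kinetochore genes knl-1, ndc-80, him-10, hcp-3 and bub-1, and the central spindle gene zen-4. They were chosen by symbol in the probe-to-gene table of the array, and all 10 were found, each with 1 probe set, among 26128 genes with a probe set of their own. RNA was measured in whole animals of the strain JK1466 on C. elegans Gene 1.1 ST arrays after 48 h in 25 µM of a pigment of the betaxanthin class or in water. The compounds were tryptophan-betaxanthin, the parent, and 2 of its derivatives, labelled tryptophan methyl ester-betaxanthin and, with a benzyl in place of the methyl, tryptophan benzyl ester-betaxanthin. Dose and time were the same for all of them, and an ester carries its methyl or benzyl group on the tryptophan part. Each compound had 3 arrays, from independent trials 1, 2 and 3, and water had 2 arrays, from trials 1 and 2, so that 11 arrays were compared.

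Every group, the water control included, carried the same genetic background: the strain holds the allele q485 of gld-1 over a chromosome marked with dpy-5(e61) and unc-13(e51), the labels give its genotype as gld-1(-), and all animals were fed Escherichia coli HT115 gld-1 bacteria, which knock down gld-1 by RNA interference. Treatment began 16 to 18 h after hatching, in liquid medium at 20 °C. The age of the animals, L4 larvae or young adults, is given as 2 days after hatching. A 48 h treatment begun at 16 to 18 h would end later than 2 days after hatching. Which of these times holds is not settled by the sources used here. GLD-1 is an RNA-binding protein that holds germ cells in the meiotic programme, and without it germ cells that had begun to develop as oocytes return to mitosis and form a germline tumour. No array of animals with normal gld-1 was analysed here, so the groups are compared only with one another. A water array for trial 3 was not used here either. As the allele is balanced, the loss of gld-1 rests on the bacteria too. The signal of gld-1 itself was 7.32 and 7.43 with water and 7.12, 7.45 and 7.14 with tryptophan-betaxanthin. It was 6.74, 7.33 and 5.91 with the methyl ester and 6.44, 5.50 and 6.27 with the benzyl ester. Against water its log2 fold change was -0.72 ± 0.38 with the methyl and -1.31 ± 0.38 with the benzyl ester (SE, adjusted p 0.376 and 0.167 in limma). The part of gld-1 in the levels of the 10 genes was not tested.

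At cell division the kinetochore is the protein structure that ties a chromosome to spindle microtubules. In C. elegans chromosomes are holocentric, which means that kinetochores form along their whole length instead of at a single centromere. HCP-3 (the CENP-A histone) marks the chromatin on which they assemble, KNL-1 and the NDC-80 complex make the outer plate that grips microtubules, and BUB-1 is a kinase of that plate. The chromosomal passenger complex consists of the kinase AIR-2 (Aurora B) with ICP-1 (INCENP), BIR-1 (survivin) and CSC-1 (borealin). It corrects wrong attachments, releases cohesion in meiosis and moves to the central spindle at anaphase, where it acts with the kinesin ZEN-4 in cytokinesis. In animals of this age the germline holds most of the dividing and meiotic cells, and oocytes store messengers of these genes for the embryo.

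The deposited values are log2 signals (RMA), on which a difference of 1 is a factor of 2 and which do not allow the level of one probe set to be set against that of another. All 10 genes stayed above the median signal of the 26761 tested probe sets, which was 2.28: the lowest value of any of them on any array was 3.33, and none was removed by a filter. Array medians lay between 2.23 and 2.32 and the lowest correlation between arrays was 0.960. The 3 arrays of the third trial stood apart from the others of their groups, with 15.2% of all tested probe sets past the threshold in a test of the third against the first and second trials (limma with the compound as a term, adjusted p under 0.05). Since water had no array of trial 3, that trial weighs on every comparison with water. The medians over the 10 genes and the range of their fold changes against water are therefore also given without it. The fold changes printed with an SE, the counts of groups without overlap and the gene lists include it.

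The 10 genes had lower mean signals with either ester than with water and lay on both sides of water with tryptophan-betaxanthin. Their median log2 fold change against water was -0.45 for the methyl ester and -0.48 for the benzyl ester, with all 10 below 0 in both, and -0.04 for tryptophan-betaxanthin, with 5 of 10 below 0. Over all tested probe sets the medians were 0.01, 0.01 and 0.01 in that order, and 48%, 48.7% and 47.2% lay below 0. None of the 10 genes passed the adjusted threshold of 0.05 in limma in any of these comparisons, where 0.258%, 0.564% and 0.00374% of the tested probe sets did. The 3 comparisons share the same 2 water arrays.

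**Figure D1:**
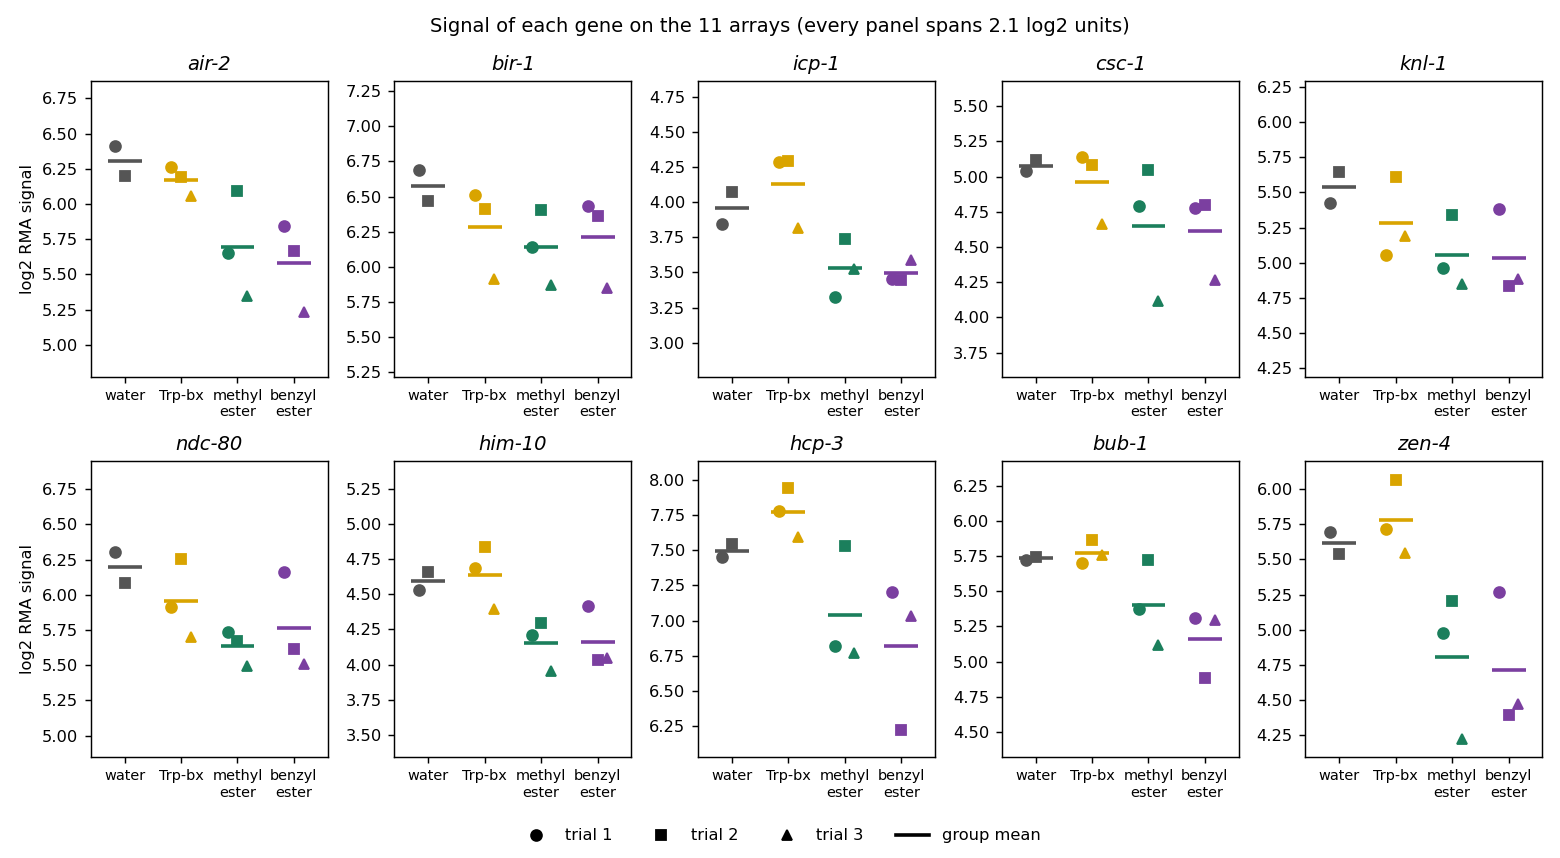
The log2 RMA signal of each gene (vertical axes, every panel spanning the same number of log2 units) is plotted by group, with 1 point per array shaped by trial and a bar for the group mean; Trp-bx is tryptophan-betaxanthin. The ester points lie mostly below the water and tryptophan-betaxanthin points, by the largest distance for zen-4, and the second methyl ester array is often the highest of the ester arrays.

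Among the passenger genes, air-2, which encodes the Aurora B kinase itself, gave 6.41 and 6.20 with water and 6.26, 6.19 and 6.05 with tryptophan-betaxanthin. The methyl ester arrays gave 5.65, 6.09 and 5.34 and the benzyl ester arrays 5.84, 5.67 and 5.23, always in the order of the trials. Both water arrays and all of the tryptophan-betaxanthin arrays except the third were above every ester array, and that one, at 6.05, was just under the second methyl ester array. Against water air-2 was -0.61 ± 0.23 for the methyl ester and -0.73 ± 0.23 for the benzyl ester (log2 fold change ± SE, 3 arrays against 2), with unadjusted p of 0.0227 and 0.0096 and adjusted p of 0.245 and 0.192. The gene for its activator and scaffold, icp-1, gave 3.84 and 4.07 with water and 4.28, 4.29 and 3.81 with tryptophan-betaxanthin. It was at 3.33, 3.74 and 3.53 under the methyl ester and at 3.46, 3.45 and 3.59 under the benzyl ester. For icp-1 all 6 ester values fell under all 5 values of the other groups, and the benzyl ester arrays lay close together. Its log2 fold change was -0.43 ± 0.17 under the methyl ester and -0.46 ± 0.17 under the benzyl ester, each with an unadjusted p under 0.05 (0.0318 and 0.0231) and an adjusted p of 0.268 and 0.251.

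BIR-1 and CSC-1 are the subunits that bring the complex to chromosomes. In the genes of both, as in air-2, the third-trial array was the lowest of each compound. For bir-1 the signals were 6.69 and 6.47 with water and 6.51, 6.41 and 5.92 with tryptophan-betaxanthin. Methyl ester arrays were at 6.14, 6.41 and 5.87, and benzyl ester arrays at 6.44, 6.36 and 5.85. The third-trial values were 5.85 to 5.92, and the remaining treated arrays lay between 6.14 and 6.51, near the lower water array at 6.47. Of the compounds only tryptophan-betaxanthin overlapped with water for bir-1, and the log2 fold changes of -0.44 ± 0.23 and -0.36 ± 0.23 with the methyl and benzyl esters had unadjusted p of 0.092 and 0.154. The signals of csc-1 were 5.04 and 5.12 with water and 5.14, 5.08 and 4.66 with tryptophan-betaxanthin. The methyl ester arrays gave 4.79, 5.05 and 4.12 and the benzyl ester arrays 4.77, 4.80 and 4.27. The third-trial arrays had the lowest value of each compound, and the second methyl ester array, at 5.05, lay between the water arrays. Its log2 fold changes were -0.43 ± 0.27 and -0.46 ± 0.27, with unadjusted p of 0.147 and 0.118.

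Of the microtubule-binding layer, knl-1 encodes the scaffold that recruits the NDC-80 complex and the checkpoint kinase. Its signals were 5.43 and 5.65 with water and 5.06, 5.61 and 5.19 with tryptophan-betaxanthin. It was at 4.96, 5.34 and 4.85 under the methyl ester and at 5.38, 4.83 and 4.89 under the benzyl ester. The water arrays were above all other arrays except the second tryptophan-betaxanthin array, at 5.61, and the first benzyl ester array and the second methyl ester array were the highest of the esters. The log2 fold change was -0.25 ± 0.22 for tryptophan-betaxanthin, -0.49 ± 0.22 for the methyl ester and -0.50 ± 0.22 for the benzyl ester, and only the last had an unadjusted p under 0.05 (0.0466, adjusted 0.319). For ndc-80, the microtubule-binding subunit that gives the complex its name, the signals were 6.30 and 6.09 with water and 5.92, 6.25 and 5.70 with tryptophan-betaxanthin. Methyl ester arrays were at 5.73, 5.67 and 5.50, and benzyl ester arrays at 6.16, 5.62 and 5.51. All methyl ester values lay under both water values, while the first benzyl ester array, at 6.16, fell between them, and ndc-80 was the only gene of the 10 whose benzyl ester and water arrays overlapped. Its log2 fold change was -0.56 ± 0.21 with the methyl ester (unadjusted p 0.0249) and -0.43 ± 0.21 with the benzyl ester (unadjusted p 0.0691). The partner of NDC-80 in the complex is HIM-10 (Nuf2), and him-10 had signals of 4.53 and 4.66 with water and 4.68, 4.83 and 4.39 with tryptophan-betaxanthin. The methyl ester arrays gave 4.21, 4.29 and 3.95 and the benzyl ester arrays 4.41, 4.03 and 4.04. The ester arrays of him-10 were all below both water arrays, and the one benzyl ester array that reached the tryptophan-betaxanthin range was again the first, at 4.41 against 4.39. Its log2 fold changes of -0.44 ± 0.17 and -0.43 ± 0.17 had unadjusted p of 0.0261 and 0.0286 and adjusted p of 0.255 and 0.269.

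The centromeric histone gene hcp-3 had signals of 7.45 and 7.54 with water and 7.78, 7.94 and 7.60 with tryptophan-betaxanthin. It was at 6.82, 7.53 and 6.77 under the methyl ester and at 7.20, 6.22 and 7.03 under the benzyl ester. All 3 tryptophan-betaxanthin values were above both water values, which none of the other 9 genes showed and which 16.2% of the tested probe sets did, with a log2 fold change of 0.28 ± 0.30 (unadjusted p 0.378). With the esters hcp-3 ran over a wide range between trials, from 6.77 to 7.53 for the methyl ester and from 6.22 to 7.20 for the benzyl ester. Its log2 fold change against water was -0.46 ± 0.30 for the methyl ester, whose second array lay between the water values, and -0.68 ± 0.30 for the benzyl ester, with unadjusted p of 0.16 and 0.0482. C. elegans has a second gene of the same kind, cpar-1, and whether the hcp-3 probes tell the messengers apart is not given in the sources used here. For bub-1, whose product is a kinase that loads checkpoint proteins at kinetochores, the signals were 5.72 and 5.74 with water and 5.70, 5.86 and 5.76 with tryptophan-betaxanthin. Methyl ester arrays were at 5.38, 5.72 and 5.12, and benzyl ester arrays at 5.31, 4.88 and 5.29. The benzyl ester values of bub-1 were all under every water and tryptophan-betaxanthin value, whereas the second methyl ester array, at 5.72, lay among them. Its log2 fold change was -0.57 ± 0.18 with the benzyl ester (unadjusted p 0.0106, adjusted 0.197) and -0.33 ± 0.18 with the methyl ester (unadjusted p 0.0996).

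The motor gene zen-4, which encodes the kinesin of centralspindlin, had the largest differences of the 10 in both ester comparisons. Its signals were 5.69 and 5.54 with water and 5.72, 6.07 and 5.55 with tryptophan-betaxanthin. The methyl ester arrays gave 4.98, 5.20 and 4.23 and the benzyl ester arrays 5.27, 4.40 and 4.48. Every ester array was below every array of water and of tryptophan-betaxanthin, and the lowest ester values were those of the third methyl ester array and the second benzyl ester array. The log2 fold change was -0.81 ± 0.32 under the methyl ester and -0.90 ± 0.32 under the benzyl ester, with unadjusted p of 0.0312 and 0.0195 and adjusted p of 0.267 and 0.237. With tryptophan-betaxanthin zen-4 was 0.16 ± 0.32.

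Counted over the 10 genes, 8 had methyl ester arrays that all lay under both water arrays (not csc-1 and hcp-3) and 9 had benzyl ester arrays that did so (not ndc-80), where 20.8% and 17.4% of the tested probe sets did. With the methyl ester bub-1 entered this count by a very small margin, 5.721 against 5.725 for the lower water array, and bir-1 by 6.41 against 6.47. An unadjusted p under 0.05 with a lower level was reached by 5 of 10 genes for the methyl ester (air-2, icp-1, ndc-80, him-10 and zen-4) and by 7 of 10 for the benzyl ester (air-2, icp-1, knl-1, him-10, hcp-3, bub-1 and zen-4), against 8.13% and 7.07% of the tested probe sets. No gene was higher by either measure, where 20.4% and 19% of the tested probe sets had higher groups without overlap and 8.25% and 8.21% a higher level with an unadjusted p under 0.05. Adjusted over all tested probe sets, the smallest p in limma was 0.245 for the methyl ester and 0.192 for the benzyl ester, both for air-2. With the trial as a block 0 of 10 genes passed for the benzyl ester against water, where 1.28% of the tested probe sets did. For tryptophan-betaxanthin no gene had an unadjusted p under 0.05 in either direction, against 3.52% of the tested probe sets lower and 2.52% higher, and none lay wholly below water, against 17.2%. Its 95% interval reached down to the methyl ester's difference from water or below it for 6 of the 10 genes, and to that of the benzyl ester for 4. It did not for icp-1, him-10, hcp-3 and zen-4 with either ester, nor for air-2 and bub-1 with the benzyl ester. This sets an interval against an estimate that has its own error and shares the water arrays. The share over all tested probe sets was not computed. In the direct test against tryptophan-betaxanthin, given below, none of the 10 genes passed the adjusted threshold. An exact two-sided permutation test of 3 arrays against 2 cannot give a p below 0.1 for a single gene.

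**Figure D2:**
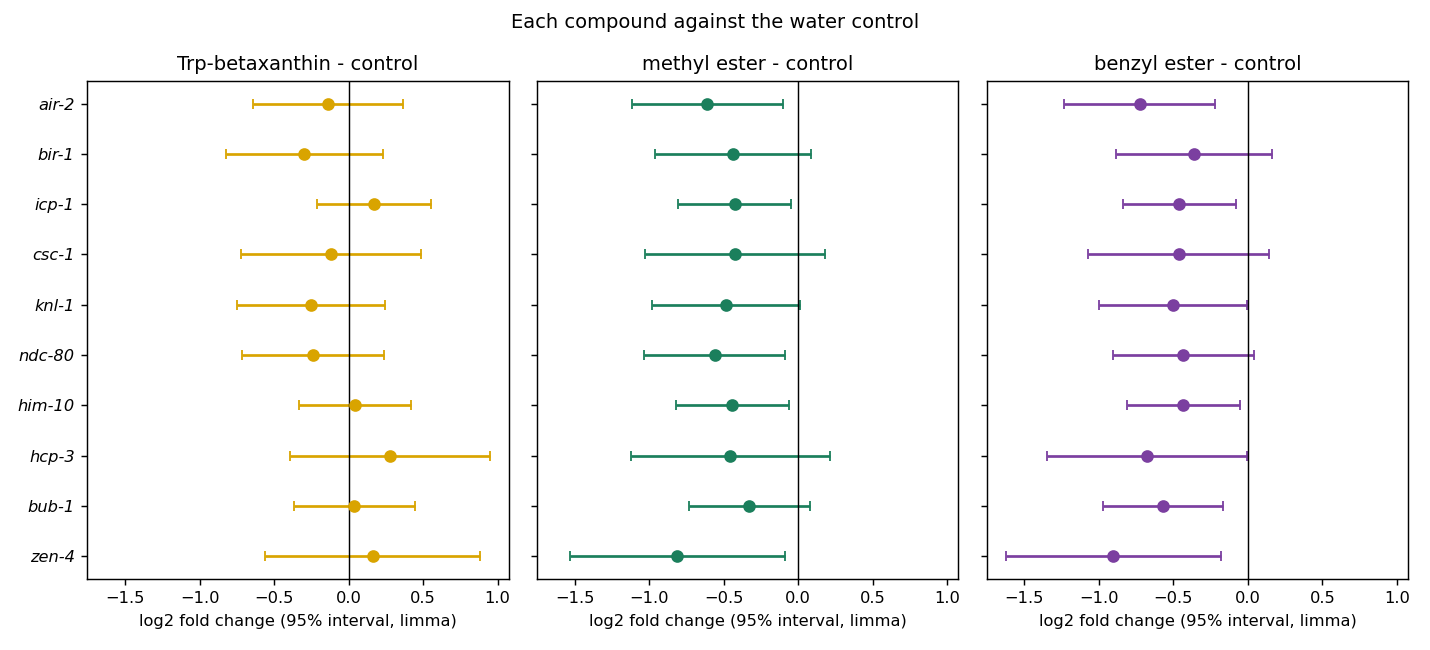
Points give the log2 fold change of each gene for each compound against water and bars the 95% interval from limma (3 arrays against 2). All 20 ester points lie to the left of 0, between -0.90 and -0.33, while the tryptophan-betaxanthin points lie on both sides, between -0.30 and 0.28.

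Within single trials the direction was the same. In trial 1 the 10 genes had a median difference from the water array of -0.53 for the methyl ester and -0.26 for the benzyl ester, and in trial 2 the medians were -0.21 and -0.63, with all 10 genes below 0 in each of these 4 sets. Over all tested probe sets 31.4% were lower in both trials for the methyl ester and 31.7% for the benzyl ester. The lower of these medians was that of the methyl ester in trial 1 and that of the benzyl ester in trial 2. For tryptophan-betaxanthin the medians were 0.00 in trial 1 and 0.14 in trial 2, and 3 of 10 genes were lower in both, against 29% of the tested probe sets. With the third trial left out of all groups, the medians over the 10 genes were -0.36 for the methyl ester, -0.47 for the benzyl ester and 0.04 for tryptophan-betaxanthin. Single genes then ran from -0.52 (zen-4) to -0.16 (csc-1) for the methyl ester and from -0.78 (hcp-3 and zen-4) to -0.18 (bir-1) for the benzyl ester. For tryptophan-betaxanthin they ran from -0.21 (knl-1) to 0.36 (hcp-3). Several ester differences were thus smaller than with all arrays, as for csc-1 with the methyl ester, at -0.43 there.

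Set against the parent compound instead of water, where the dose is matched and each group has 3 arrays, the mean signals under the esters were again lower. The median log2 difference from tryptophan-betaxanthin was -0.42 for the methyl ester and -0.53 for the benzyl ester, with all 10 genes below 0 in both, against medians of 0.00 and -0.01 and shares of 49.9% and 51.3% below 0 over all tested probe sets. The esters were lower in every trial for 10 of 10 genes with the methyl ester and for 8 of 10 with the benzyl ester, against 23.3% and 20.9% of the tested probe sets. The exceptions were knl-1 and ndc-80, which in the first trial were 0.32 and 0.25 higher with the benzyl ester.

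With the benzyl ester the largest differences from the parent compound were those of zen-4, hcp-3, icp-1 and bub-1. For zen-4 the difference was -0.97 ± 0.29 under the methyl ester and -1.06 ± 0.29 under the benzyl ester, for adjusted p of 0.106 and 0.0767 in limma. For hcp-3 it was -0.73 ± 0.27 and -0.95 ± 0.27 (adjusted p 0.165 and 0.0839), and in trial 2 the benzyl ester array of hcp-3 differed from the parent array by -1.72. The smallest adjusted p among the 10 genes was that of icp-1, with a difference of -0.63 ± 0.15 for the benzyl ester (adjusted p 0.058) and -0.60 ± 0.15 for the methyl ester (adjusted p 0.0774). For bub-1 the difference was -0.61 ± 0.16 with the benzyl ester (adjusted p 0.0725) and -0.37 ± 0.16 with the methyl ester (adjusted p 0.239). At the other end bir-1 differed from the parent compound by -0.14 ± 0.21 under the methyl ester and -0.07 ± 0.21 under the benzyl ester, in a 95% interval of -0.54 to 0.40 for the latter.

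None of the 10 genes passed the adjusted threshold against the parent compound, where 1.37% of the tested probe sets did for the methyl ester and 3.09% for the benzyl ester. An unadjusted p under 0.05 with a lower level was reached by the same 6 genes for both esters (air-2, icp-1, him-10, hcp-3, bub-1 and zen-4), against 9.91% and 8.92% of the tested probe sets. None of the 10 was higher in this way, as 10.3% and 11.2% of the tested probe sets were. Groups that did not overlap were found for icp-1, him-10, hcp-3 and zen-4 with the methyl ester (12.9% of the tested probe sets) and for air-2, icp-1, hcp-3, bub-1 and zen-4 with the benzyl ester (11.1%), and for none in the other direction (13.5% and 13.4%). The methyl ester and tryptophan-betaxanthin arrays of trial 3 deviated together. Those of trials 1 and 2 did so across the numbers too, so a pairing by number was not shown for them. In the fit with the trial as a block 3 of 10 genes passed for the methyl ester: zen-4 (adjusted p 0.0282), icp-1 (0.0335) and him-10 (0.0361), where 11.1% of the tested probe sets passed. The block count for the benzyl ester is given with the other settings below. Without the third trial 1 of 10 passed for the methyl ester (icp-1, adjusted p 0.0355, 3.3% of the tested probe sets) and 5 of 10 for the benzyl ester, where 10.9% of the tested probe sets passed: icp-1 (0.0133), zen-4 (0.0314), bub-1 (0.035), hcp-3 (0.0448) and him-10 (0.0462). Without single arrays the count for the benzyl ester was 1 without its first array (1.85% of the tested probe sets passed), 2 without the second methyl ester array (4.85%) or 3 without the third methyl ester array (7.8%), and that for the methyl ester was 1 without its second array (6.07%). An F-test over the 4 groups gave the 10 genes an adjusted p of at least 0.101, where 1.34% of the tested probe sets had an adjusted p under 0.05. Its unadjusted p was under 0.05 for the same 6 genes (air-2, icp-1, him-10, hcp-3, bub-1 and zen-4). The share of all tested probe sets by that unadjusted measure was not computed.

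**Figure D3:**
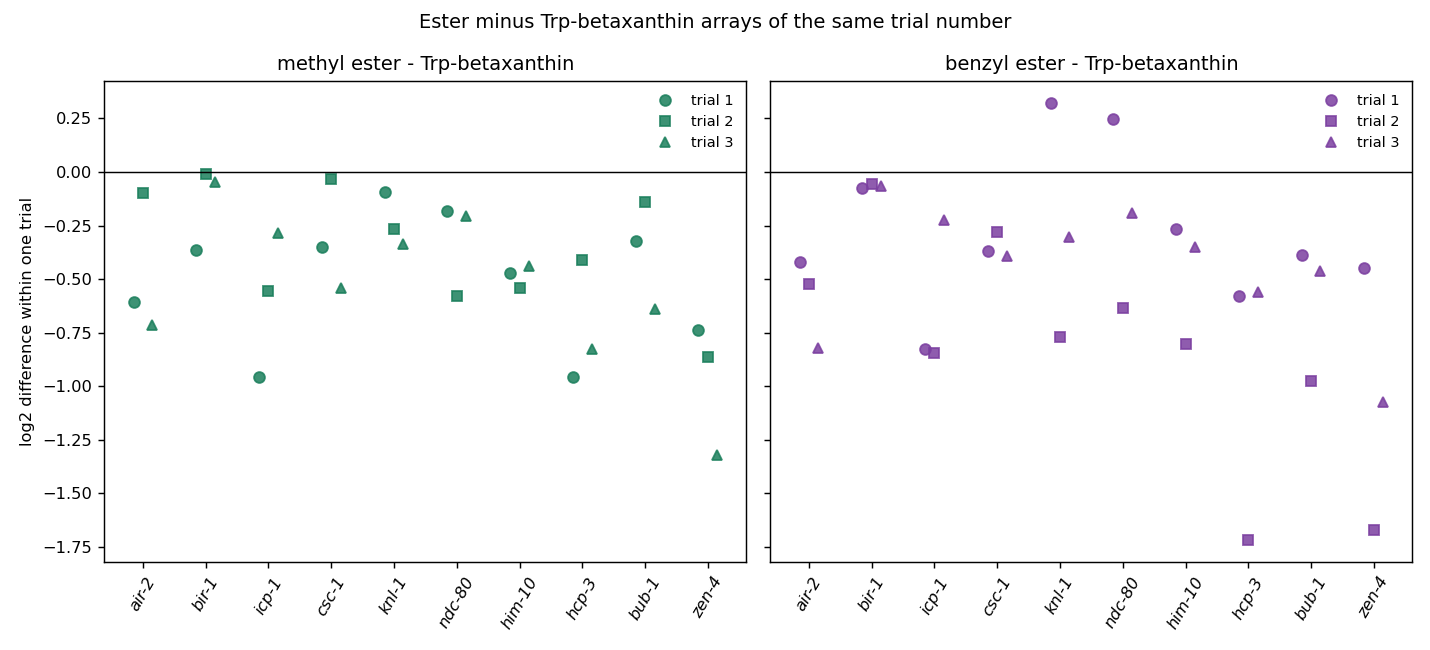
Each point is the log2 difference between the ester array and the tryptophan-betaxanthin array of the same trial number, by gene (left methyl ester, right benzyl ester). All methyl ester points are below 0, zen-4 reaches -1.32 in trial 3 of the methyl ester and -1.67 in trial 2 of the benzyl ester, and only knl-1 and ndc-80 in trial 1 of the benzyl ester lie above 0.

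The methyl and the benzyl ester were compared with each other at the same dose and time. Differences, methyl minus benzyl, ran from -0.13 (ndc-80) to 0.24 (bub-1), with a median of 0.04 and 3 of 10 genes below 0, against a median of 0.00 and 49.2% below 0 over all tested probe sets. No gene had groups that did not overlap (3.96% of the tested probe sets lower, 3.52% higher), an unadjusted p under 0.05 (2.43% and 1.9%) or an adjusted p under 0.05 (0.149%). The 95% intervals over the 10 genes reached from -0.56 to 0.82, both ends belonging to genes of large spread, zen-4 and hcp-3, so a difference between the esters of the size that either had from water was not excluded for every gene. For him-10 the interval was narrower, -0.35 to 0.33. By trial the order of the esters changed: the methyl ester was the lower for 8 of 10 genes in trial 1, for 0 of 10 in trial 2 and for 8 of 10 in trial 3, with medians of -0.25, 0.36 and -0.08, and 0 of 10 genes were lower in all of the trials, against 12.9% of the tested probe sets.

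Across the treated arrays the third trial had lower mean signals of the 10 genes than the first and second. The difference of trial 3 from trials 1 and 2, with the compound as a term (9 arrays), had a median of -0.30 and was below 0 for 10 of 10 genes, against a median of 0.01 and 48.2% of the tested probe sets. It passed the adjusted threshold for 2 of 10, where 8.59% of the tested probe sets passed with a lower and 6.62% with a higher level: csc-1 at -0.59 ± 0.10 (SE, adjusted p 0.0104) and bir-1 at -0.50 ± 0.09 (SE, adjusted p 0.0117). For csc-1 the third array lay below the mean of the first and second (differences of -0.45 with tryptophan-betaxanthin, -0.80 under the methyl ester and -0.52 under the benzyl ester), and for bir-1 the differences were -0.54, -0.40 and -0.55. Leaving out the benzyl ester array of trial 3 ended both calls (adjusted p 0.0679 for csc-1 and 0.0824 for bir-1), as did leaving out the methyl ester array of that trial (0.0751 and 0.0682). In these fits the share of all tested probe sets that passed was 0.0448% and 0.0747%. The next genes by p were air-2 at -0.41 ± 0.12 (SE, adjusted p 0.0515), him-10 at -0.28 ± 0.10 (SE, adjusted p 0.102) and zen-4 at -0.52 ± 0.19 (SE, adjusted p 0.11), and air-2 had an adjusted p of 0.0257 without the third tryptophan-betaxanthin array, where 20.1% of the tested probe sets passed.

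In 4 of the 10 genes, air-2, bir-1, csc-1 and ndc-80, the third array was the lowest within each of the 3 compounds, against 14.2% of the tested probe sets. In none was it the highest, against 12.5%. At the other end were icp-1, hcp-3 and bub-1, with differences of -0.11, -0.12 and -0.09 in the test, for which the benzyl ester array of trial 3 was above the mean of trials 1 and 2 by 0.14, 0.32 and 0.20. Tested against the shift in tryptophan-betaxanthin, the third-trial shift of an ester had an adjusted p of at least 0.414 in limma for these genes, the smallest being that of icp-1 with the benzyl ester. In the test of trial 3 against trials 1 and 2 over the 3 compounds, 17 of 24 sperm markers, 8 of 18 oocyte markers and 2 of 14 general germline markers were called lower, and 4 of 10 body wall muscle markers were called higher. The shares of all tested probe sets are those given above for this test. Most of the sperm markers are msp genes, close copies whose probes may not tell them apart, so their calls need not be separate results. The part of these markers in the third-trial difference of the 10 genes was not tested.

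**Figure D4:**
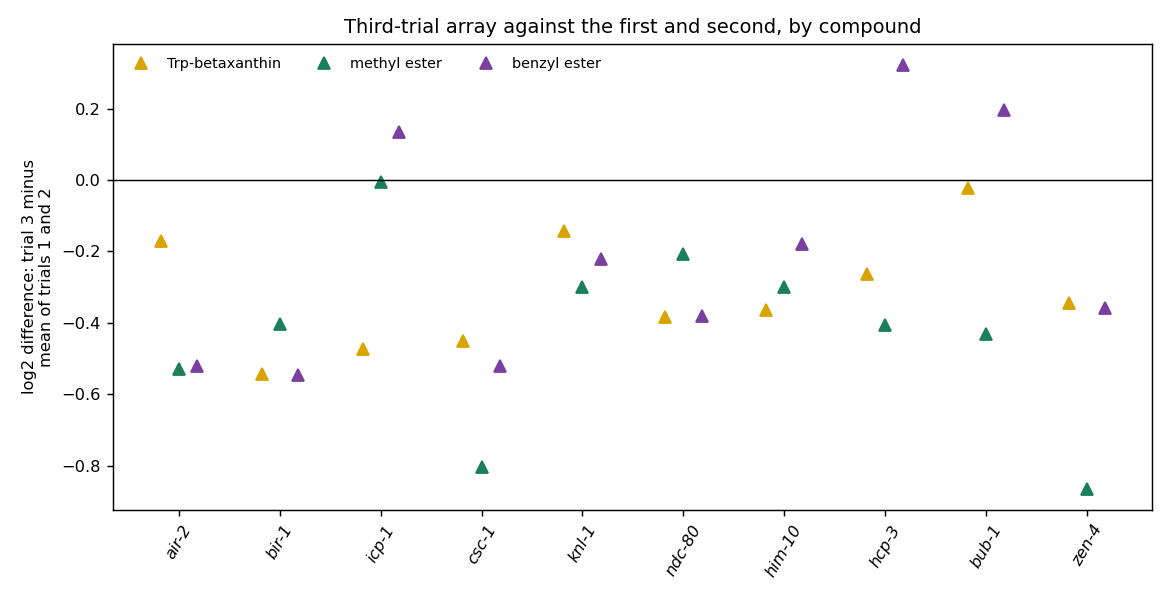
For each gene and compound the triangle gives the third-trial array minus the mean of the first and second trial arrays of that compound (log2). The triangles of bir-1 and csc-1 are all below -0.40, while those of icp-1, hcp-3 and bub-1 with the benzyl ester are above 0.

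Over the 11 arrays the 10 genes varied together. All 45 pairwise correlations were above 0, from 0.356 (bir-1 with hcp-3) over a median of 0.775 to 0.963 (him-10 with zen-4), as a description of arrays that share groups and trials. The mean of the 10 genes, each centred on its own mean, was 0.30 and 0.29 on the water arrays, 0.29, 0.44 and 0.05 with tryptophan-betaxanthin, -0.21, 0.09 and -0.49 with the methyl ester and 0.01, -0.39 and -0.40 with the benzyl ester. The second tryptophan-betaxanthin array was thus the highest and the third methyl ester array the lowest, and the 6 ester arrays covered -0.49 to 0.09. Of 13138 other genes with a mean signal above the median, those most like this mean over the 11 arrays were memi-1 (r = 0.9887), szy-4 (0.9878), mics-1 (0.9866), let-99 (0.9854) and R11H6.5 (0.9852). Against water memi-1 was -1.01 under the methyl ester and -1.03 under the benzyl ester, and szy-4 was -1.04 and -1.17.

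Marker genes of the germline varied with the 10 genes. The mean of 14 general germline markers had a correlation of 0.972 with the mean of the 10 genes over the 11 arrays. Summed on the linear scale and given as log2, the germline markers were at 9.61 to 9.72 with water, 9.64 to 9.93 with tryptophan-betaxanthin, 8.59 to 9.39 with the methyl ester and 8.77 to 9.30 with the benzyl ester, and all 14 were below 0 in both ester comparisons with water, with medians of -0.70 and -0.77. The oocyte markers (18 genes) were at 11.46 to 11.52, 11.37 to 11.73, 9.38 to 11.12 and 9.50 to 10.76 in the same order, with medians of -1.09 and -1.29, and the sperm markers (24 genes measured) at 13.40 to 13.42, 13.23 to 13.30, 12.01 to 13.06 and 12.10 to 13.03, with medians of -0.78 and -0.82. The body wall muscle markers (10 genes) were at 11.96 to 12.08, 11.95 to 12.23, 11.98 to 12.09 and 11.81 to 12.24, with medians of 0.12 and 0.09. None of the germline, oocyte, sperm or muscle markers was called against water, and 1 germline and 2 oocyte markers were called lower and 1 muscle marker higher with the benzyl ester against tryptophan-betaxanthin. The shares of all tested probe sets called are those given above for the same comparisons. None of the germline, oocyte or muscle markers fell under the median signal of the tested probe sets on any array, and 0 to 2 sperm markers did. In whole animals, fewer cells of a type and less RNA per cell cannot be told apart, and the part of germline markers in the lower levels of the 10 genes was not tested.

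**Figure D5:**
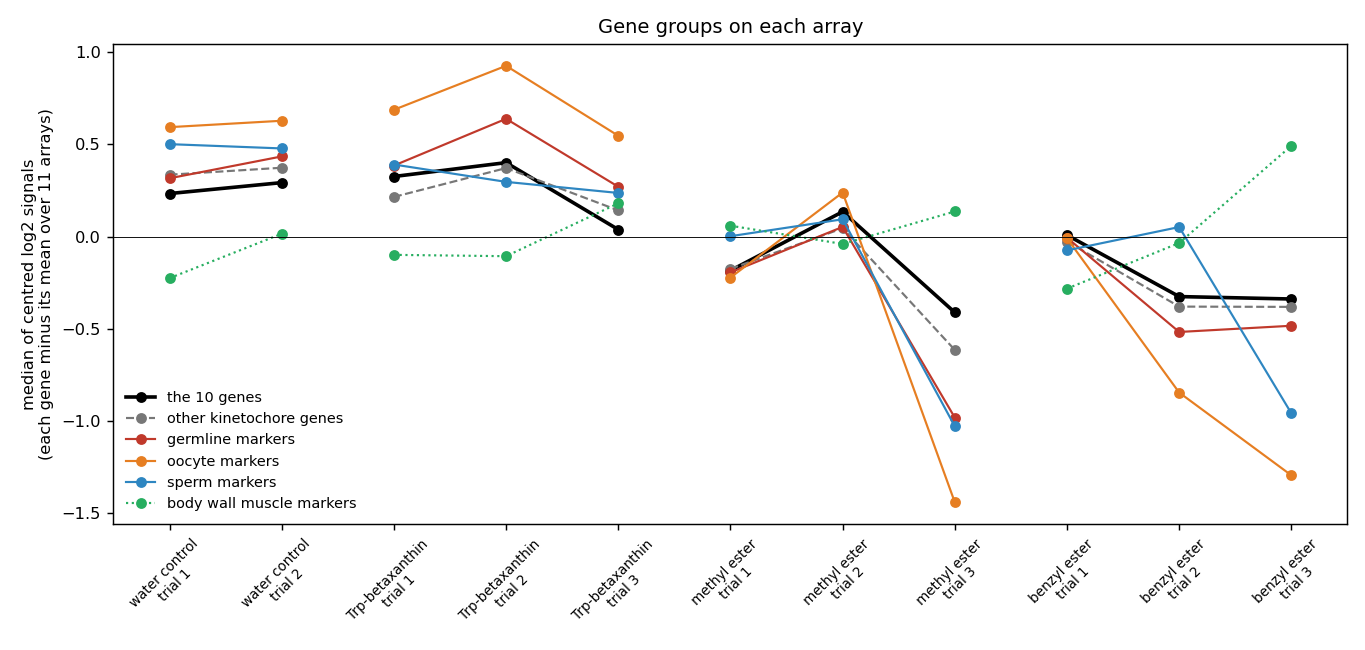
Each point is the median over a gene group of log2 signals centred on each gene's mean over 11 arrays (vertical axis), for 1 array (horizontal axis), and the lines only join arrays of one group. The 10 genes (black) follow the other kinetochore genes and the germline markers, the oocyte markers cover the widest range, down to -1.44 on the third methyl ester array, and the body wall muscle markers show another course.

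Most other kinetochore genes also had lower mean signals with the esters than with water, but over all arrays the kbp genes were low with tryptophan-betaxanthin too. Of 19 other kinetochore genes, 17 were below 0 under the methyl ester and 19 under the benzyl ester against water, with medians of -0.60 and -0.65 and 0 called in either direction, while 7 and 9 had an unadjusted p under 0.05 with a lower level. For this and all later lists, the shares of all tested probe sets by each rule are those given above for the same comparison. Against tryptophan-betaxanthin the medians of the 19 genes were -0.37 and -0.47, with 0 and 1 called lower, and the third-trial test called 7 lower and 0 higher, with a median of -0.31. With tryptophan-betaxanthin against water the median of the 19 was -0.04, with 10 below 0. Lowest there were kbp-1 to kbp-5, at -0.69 to -0.49. From tryptophan-betaxanthin these kbp genes differed by -0.05 to 0.13 with the methyl ester and by -0.17 to 0.13 with the benzyl ester. Their differences from water include trial 3, which water lacks and in which kbp-1 to kbp-5 were at -1.04 to -0.65. In trials 1 and 2 kbp-1 gave 7.34 and 7.26 with water and 6.96 and 6.86 with tryptophan-betaxanthin. It gave 7.10 and 7.36 with the methyl ester and 7.02 and 7.11 with the benzyl ester in these trials. Fold changes of the kbp genes without trial 3 were not computed. The genes of smallest p were knl-3 and kbp-1, subunits of the MIS-12 complex that anchors the outer kinetochore, and kbp-5, a KNL-1-binding protein. In the third-trial test they were -0.76 ± 0.09 (SE, adjusted p 0.0068), -1.03 ± 0.16 (SE, adjusted p 0.0101) and -1.03 ± 0.12 (SE, adjusted p 0.0068). For kbp-5 the signals were 6.90 and 6.86 with water and 6.73, 6.41 and 5.84 with tryptophan-betaxanthin. It was at 6.61, 6.77 and 5.45 under the methyl ester and at 6.63, 6.50 and 5.46 under the benzyl ester. The water values of kbp-5 were the highest and the third-trial values the lowest, and the first and second arrays of all compounds lay between them.

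The spindle checkpoint genes (5 genes: mdf-1, mdf-2, san-1, bub-3 and fzy-1) were all below 0 with both esters against water, with medians of -0.72 for the methyl ester and -0.39 for the benzyl ester and 0 called. Of the anaphase-promoting complex and separase, 12 of 14 listed genes were measured, of which 12 and 11 were below 0 with the methyl and benzyl ester against water (medians -0.46 and -0.55, 0 called). Separase, the protease that cuts cohesin at anaphase, is encoded by sep-1, whose signals were 4.68 and 4.72 with water and 4.96, 5.14 and 4.79 with tryptophan-betaxanthin. Methyl ester arrays were at 4.27, 4.42 and 3.79, and benzyl ester arrays at 4.12, 3.64 and 4.01. All ester values of sep-1 lay under all other values, and its difference from tryptophan-betaxanthin with the benzyl ester was -1.04 ± 0.18 (SE, adjusted p 0.0271). The subunit genes apc-10 and apc-11 passed in the third-trial test instead, at -0.98 ± 0.18 (SE, adjusted p 0.0121) and -1.04 ± 0.19 (SE, adjusted p 0.0126). Against tryptophan-betaxanthin 2 of these 12 genes were called lower with the benzyl ester and 0 with the methyl ester, and the third-trial test called 5 lower and 1 higher.

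Most partners of zen-4 in cytokinesis had the same direction as zen-4. Of 13 listed central spindle and cytokinesis genes 12 were measured, 11 of which were below 0 with each ester against water, with medians of -0.65 and -0.69 and 0 called, and 10 and 8 of which had an unadjusted p under 0.05 with a lower level. CYK-4, the GTPase-activating protein that forms centralspindlin together with ZEN-4, is encoded by a gene with signals of 6.51 and 6.49 with water and 6.52, 6.88 and 6.47 with tryptophan-betaxanthin. The methyl ester arrays gave 5.86, 6.28 and 5.38 and the benzyl ester arrays 5.24, 5.46 and 5.82. The ester values of cyk-4 were below all others, as those of zen-4 were, and its difference from tryptophan-betaxanthin with the benzyl ester was -1.12 ± 0.23 (SE, adjusted p 0.0349). The genes rga-3 and rga-4, close copies that encode GTPase-activating proteins, were -1.24 ± 0.27 (SE, adjusted p 0.0413) and -0.64 ± 0.15 (SE, adjusted p 0.0483) in the same comparison, and their probes may not tell them apart. These 3 genes were the only ones of the 12 called lower with the benzyl ester against tryptophan-betaxanthin, 0 were called with the methyl ester, and the third-trial test called 2 lower and 1 higher.

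Among 26 centrosome and spindle genes, 24 were below 0 with each ester against water (medians -0.40 and -0.44, 0 called), and against tryptophan-betaxanthin 1 was called lower under the methyl ester and 2 under the benzyl ester. The gene spd-2, for a scaffold protein of the centrosome, was called with both, at -0.94 ± 0.16 (SE, adjusted p 0.0283) for the benzyl ester and -0.86 ± 0.16 (SE, adjusted p 0.0431) for the methyl ester. Its signals were 6.70 and 6.76 with water and 7.10, 7.12 and 6.83 with tryptophan-betaxanthin. It was at 6.07, 6.36 and 6.03 under the methyl ester and at 6.26, 5.70 and 6.27 under the benzyl ester, so that no ester array reached the other groups. The kinesin gene klp-18 and the katanin gene mei-1, which act on the oocyte spindle, passed in the third-trial test, at -0.57 ± 0.09 (SE, adjusted p 0.00984) and -0.56 ± 0.10 (SE, adjusted p 0.0111), a test that called 5 of the 26 lower and 0 higher. The signal of klp-18 was low, at most 3.10 on any array. On the third methyl and benzyl ester arrays it was 1.86 and 1.87, under the median signal of 2.28. Condensin genes (9) had medians of -0.52 and -0.38 against water with 8 below 0 in both and none called there, against tryptophan-betaxanthin or in the third-trial test. Of 5 regulators of AIR-2, 3 and 4 were below 0 against water with the methyl and benzyl ester (medians -0.31 and -0.39), with 0 called. In the third-trial test lab-1, whose product keeps AIR-2 off the long arms of meiotic chromosomes, was -0.82 ± 0.20 (SE, adjusted p 0.0276), while gsp-2, which encodes a phosphatase that opposes AIR-2, was higher, at 0.46 ± 0.13 (SE, adjusted p 0.0476).

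The genes next to the 10 on the chromosomes lay on both sides of water. Of 20 flanking genes measured, 12 were below 0 under the methyl ester and 10 under the benzyl ester against water, with medians of -0.09 and 0.00 and 0 called. One of them is skp-1, which shares an operon with bir-1: against water it was -0.10 under the methyl ester and -0.01 under the benzyl ester, next to -0.44 and -0.36 for bir-1. The difference between these neighbours was not tested.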

How the data were processed

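Total RNA from whole JK1466 animals was hybridised to 11 arrays, grouped by the sample labels into water (2), tryptophan-betaxanthin (3), its methyl ester (3) and its benzyl ester (3). The deposited log2 signals had been summarised by the authors with RMA, for which the submitters' processing notes name the Affymetrix Expression Console and the methods the Transcriptome Analysis Console. Software versions, the annotation release and the genome build of the array were "not given in the sources used here", so no coordinates are printed. The values were used without further normalisation.

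Among 29317 probe sets the 26761 that carry a gene symbol were tested. Of these, 26281 name 1 gene and 480 name several, and 24801 single-gene probe sets matched RefSeq (WBcel235), including all 10 genes described. The groups were compared in limma 3.58.1 (lmFit and eBayes, R 4.3.3) with 1 spread shared by all, in 6 comparisons, an F-test and a test of the third trial in the 9 treated arrays. P-values were adjusted by Benjamini-Hochberg across the tested probe sets, and the threshold was 0.05. The fit was tested on simulated data. The number of arrays limits the precision, and p-values measure the spread between trials, which the labels call independent.

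Whether trial numbers pair the arrays was checked by correlating their deviations from the group means. Same-numbered arrays of the methyl ester and tryptophan-betaxanthin gave 0.214, 0.291 and 0.453, those of the esters 0.501, 0.235 and 0.742, those of tryptophan-betaxanthin and the benzyl ester 0.272, -0.0609 and 0.472, and those with water -0.0467 to 0.134. The mark was 0.1 for every same-numbered value, which the methyl ester with tryptophan-betaxanthin and the esters with each other passed. Arrays of trials 1 and 2 with unlike numbers passed it too, at 0.214 and 0.151 for the former and 0.431 and 0.497 for the latter. A pairing by number was therefore not shown for those trials.

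The genes described, the 18 gene lists and the tests were chosen with earlier results of these data known. Named besides the 10 genes are, from each pathway list, up to 3 genes of smallest p among those past the adjusted threshold in any comparison or in the third-trial test, and the 5 genes most correlated with the mean of the 10. Among the listed genes not found in the probe-to-gene table were mat-2, apc-17, tag-312 and 4 msp genes, and a further listed gene is not reported here. Alternatives were the trial as a block, a fit to only the groups compared, an intensity trend in a robust prior, weights for arrays, normalisation by cyclic loess or by the median, a filter on dim probe sets, all probe sets, thresholds of 0.1 and 0.01, averaged probe sets, and leaving out each array or the third trial.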

Additional observations from a re-analysis of the deposited data

How the results depend on the processing

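The median difference of the 10 genes moved by less than the spread between arrays (0.208, the pooled SD of the median of the 10 genes) in all 159 recalculations, and both esters kept a median below 0 against water and against tryptophan-betaxanthin under every normalisation, filter and left-out array. What changed was the number of genes past the threshold. In parentheses is the share of the tested probe sets that passed in the same fit. Against water the benzyl ester gave 2 with array weights (5.74%). Against tryptophan-betaxanthin it gave 4 at an adjusted p under 0.1 (8.21%), 5 with array weights (9.31%), 2 with cyclic loess (3.02%), 1 with median centring (2.91%), 5 without the third trial (10.9%) and 0 to 3 with single arrays left out (0.0934% to 7.8%). With the trial as a block it gave 5 (11.3%), namely air-2, icp-1, him-10, bub-1 and zen-4. The methyl ester against tryptophan-betaxanthin gave 1 at an adjusted p under 0.1 (6.61%), 2 with array weights (7.45%), 3 with the trial as a block (11.1%), 1 without the third trial (3.3%) and 0 to 1 with single arrays left out (0.0448% to 6.07%). The third-trial test gave 0 at an adjusted p under 0.01 (1.43%) and 0 to 4 with single arrays left out (0.0448% to 20.1%). The block changed no other count. The cause of these changes was not tested.

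Single genes changed sign where the difference was small. With 1 array left out, the methyl minus benzyl ester difference ran from -0.083 to 0.29 for air-2, -0.26 to 0.059 for bir-1, -0.16 to 0.31 for csc-1, -0.077 to 0.41 for hcp-3, -0.080 to 0.12 for him-10, -0.071 to 0.13 for icp-1, -0.13 to 0.19 for knl-1, -0.26 to 0.072 for ndc-80 and -0.11 to 0.38 for zen-4. For him-10 it also became 0.041 with array weights, 0.027 with cyclic loess and 0.030 without the third trial. Against water tryptophan-betaxanthin ran from -0.0062 to 0.076 for bub-1, -0.21 to 0.032 for csc-1 and -0.058 to 0.16 for him-10, and csc-1 gave 0.079 with the trial as a block and 0.032 without the third trial. The benzyl ester minus tryptophan-betaxanthin ran from -0.25 to 0.12 for bir-1. In the third-trial test bub-1 ran from -0.23 to 0.086, hcp-3 from -0.34 to 0.029 and icp-1 from -0.24 to 0.065, with 0.065 for icp-1 over the ester arrays alone.

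No signal of these genes fell under the median of the tested probe sets on any array. The limits are 2 water arrays, no third-trial control among the arrays analysed, and intervals wide enough that a p above the threshold does not show equal levels.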

Other observations

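Marker lists of other tissues were measured in the same way. Against water the median log2 difference with the methyl and the benzyl ester was 0.27 and 0.23 for 10 intestine markers, 0.30 and 0.22 for 10 neuron markers, 0.72 and 0.40 for 10 hypodermis markers, -0.08 and -0.03 for 9 somatic gonad markers and 0.05 and -0.10 for 9 pharynx markers, with 0 called in each. The 6 genes listed as germline stem cell markers had medians of -0.53 and -0.60, with 5 of 6 below 0 in both and 0 called. They include gld-1, the target of the bacteria, which acts in the meiotic programme and is not a marker of stem cells. On each array 1 to 2 of the 6 lay under the median signal of the tested probe sets. So did 3 of the 9 somatic gonad markers, 1 to 4 of the 9 pharynx markers and at most 1 intestine and 1 neuron marker. In the third-trial test 6 hypodermis, 5 intestine, 3 pharynx and 3 neuron markers were called higher, while 1 hypodermis, 1 intestine and 2 somatic gonad markers were called lower, and 0 of the germline stem cell markers were called.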
